A study of Fagopyrum tataricum with 12 samples.

Results

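The middle response of Tartary buckwheat to osmotic stress was taken as the difference between seedlings held for 4 h in polyethylene glycol and seedlings sampled at 0 h. The comparison used 6 of the 12 libraries, 3 per group, and all 26750 annotated genes. Genes were grouped by their deposited symbols, product descriptions, pathways and Gene Ontology (GO) terms. Every library came from leaf and stem of Fagopyrum tataricum cultivar Dingku1, grown hydroponically under long days to the 2-leaf stage. Controls received Hoagland's nutrient solution (0 h), and treated seedlings received 20% PEG-6000 for 4 h; the remaining libraries were taken after 2 h and 8 h in the same solution. Time of day moved with the treatment because no untreated seedlings were sampled at 4 h, so the effects of PEG and of the hour cannot be told apart. The labels do not say whether libraries came from separate plants or pools, so p-values measure only the spread between these libraries, which may be technical.

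PEG-6000 is too large to enter plant cells and lowers the water potential around the roots, so that water is withheld without drying the soil. In plants generally, water deficit raises abscisic acid (ABA), which binds PYR/PYL receptors, lets them inhibit clade A protein phosphatases 2C and so frees SnRK2 kinases to phosphorylate bZIP transcription factors. Target genes of this route include those for late embryogenesis abundant (LEA) proteins, which protect proteins and membranes as cells lose water, while growth, photosynthesis and protein synthesis are commonly turned down.

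The 6 libraries held 34064515 to 37395814 counted reads, and the 12 together 30468104 to 37395814. Spearman correlations of expression between libraries were 0.9966 to 0.9970 within the 0 h and 4 h groups and 0.9014 to 0.9053 between them, and no library stood apart. The labelled tissue was checked against marker lists: light-harvesting and Calvin cycle genes took 3.91% and 4.86% of counted reads at 0 h, while 19 root markers together took 0.000412% at 0 h and 0.000271% at 4 h. Secondary wall and vascular markers took 0.0804% at 0 h and 0.0419% at 4 h, cuticle and wax enzymes 0.163% and 0.331%, and oil body and seed storage proteins 0.016% and 0.036%. In such mixed tissue, fewer cells of a type and less RNA per cell cannot be told apart, and the part of these shifts in the results below was not tested.

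After 4 h, most of the measured transcriptome differed from the control. Of 22063 genes that passed a filter on low counts, 16060 (72.8%) passed edgeR's quasi-likelihood test at a Benjamini-Hochberg adjusted p under 0.05, 7745 higher (35.1%) and 8315 lower (37.7%). These shares are the background for every count of a gene group, in which "rose" and "fell" mean past this threshold. The changes were unequal in size: 5976 genes (27.1%) also changed at least 2-fold, 2855 upward (12.9%) and 3121 downward (14.1%). At 16-fold or more, 358 genes rose and 154 fell. The median log2 change over all tested genes was -0.04, and the 3 libraries of 4 h lay wholly above or below the 3 controls for 74.4% of genes. Values per gene are TMM-scaled CPM (counts divided by the effective size of the library), given library by library or as mean ± SD over 3 libraries; FPKM, scaled by coding length, is used where genes are compared with each other. The SE beside a log2 change was back-calculated from the test, as the absolute log2 change over the square root of its F statistic. It is not a direct standard error. Where a group held few reads, as in the leading rises and falls below, it can be far too small. Within a list, the largest rise or fall is the largest among called genes that averaged at least 10 CPM, and the most abundant is by FPKM over the 6 libraries.

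The largest rises led from near-silent control levels to moderate or high expression. They were ranked among called genes with a described product, a mean of at least 10 CPM and no overlap between the groups. DTX18 (evm.TU.Ft2.3396), a transporter of the multidrug and toxic compound extrusion family that in Arabidopsis exports hydroxycinnamic acid amides, stood at 22.5, 23.2 and 24.3 CPM after 4 h against 0.0274, 0.0272 and 0.0549 CPM in the controls. Its log2 change was 9.19 (SE 0.26, adjusted p = 1.00e-28 by edgeR's quasi-likelihood test). Berberine bridge enzyme-like 8 (evm.TU.Ft3.2126), a flavin-dependent oxidoreductase, reached 273, 289 and 279 CPM from 0.494, 0.652 and 0.522 CPM, a 501-fold rise (log2 change 8.97, SE 0.097, adjusted p = 3.78e-42). EDL3 (evm.TU.Ft7.3497) encodes a positive regulator of ABA signalling in Arabidopsis, of the F-box class, and reached 362, 352 and 339 CPM from 0.768, 1.03 and 0.824 CPM (log2 change 8.64, SE 0.068, adjusted p = 1.88e-46). By length-scaled level at 4 h it was the most abundant of the 8 leading rises, at 429 FPKM against 14.1 FPKM for DTX18.

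The other 5 leading rises started from under 1 CPM in every control. UGT71K1 (evm.TU.Ft2.6027), a UDP-glycosyltransferase that in apple acts on phloretin, stood at 22, 22.7 and 24.3 CPM against 0.0548, 0 and 0.11 CPM. STO-A (evm.TU.Ft2.5825), a steroleosin of oil bodies, stood at 101, 98.4 and 103 CPM against 0.302, 0.163 and 0.357 CPM. The transcription factor gene DREB1B (evm.TU.Ft5.446), whose family binds dehydration-responsive promoter elements, stood at 116, 121 and 117 CPM against 0.247, 0.353 and 0.44 CPM. That treated and control libraries of these genes do not overlap was a condition of their choice. LPPE2 (evm.TU.Ft2.4828), a plastid phosphatase of lipid phosphates, stood at 99.7, 103 and 105 CPM against 0.165, 0.625 and 0.11 CPM. The LEA gene ECP63 (evm.TU.Ft3.119) stood at 226, 228 and 225 CPM against 0.411, 0.57 and 0.302 CPM (log2 change 9.03, SE 0.079, adjusted p = 5.19e-45). Adjusted p was 7.33e-36 for LPPE2 and 8.11e-42 for DREB1B.

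**Figure D1:**
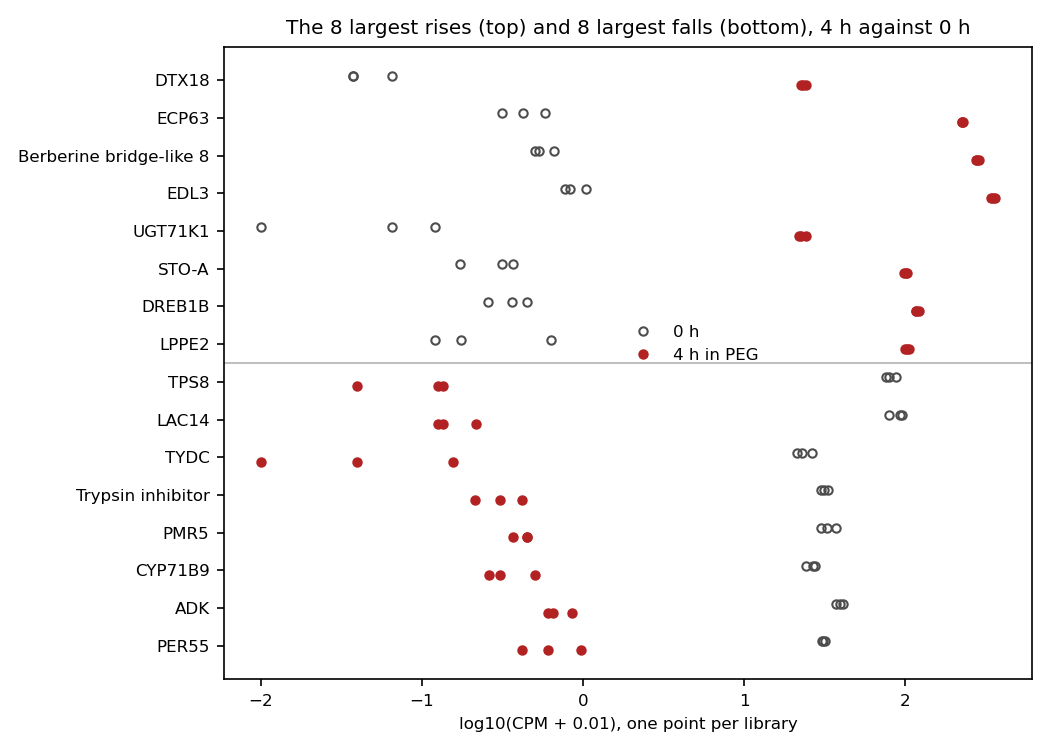
Levels of the 8 largest rises and 8 largest falls, as log10(CPM + 0.01) on the x axis, with 1 point per library (open, 0 h; filled, 4 h in PEG). All 16 were chosen among described genes in which the 3 treated libraries lie apart from the 3 controls. The gaps exceed 1 unit on this scale.

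The 8 largest falls, ranked under the same conditions, led to levels under 1 CPM in every treated library. TPS8 (evm.TU.Ft3.1285), described as a terpene synthase that makes valerianol, stood at 76.1, 79.2 and 88 CPM in the controls and 0.116, 0.0296 and 0.125 CPM after 4 h (log2 change -9.76, SE 0.18, adjusted p = 1.07e-34). LAC14 (evm.TU.Ft1.512), a laccase of the family that oxidises lignin monomers, fell from 93.1, 79.3 and 95 to 0.116, 0.207 and 0.125 CPM. TYDC (evm.TU.Ft2.4914), which decarboxylates tyrosine to tyramine, fell from 26.3, 22.8 and 21.3 to 0.146, 0.0296 and 0 CPM, with 1 treated library at 0. All 3 had reached levels under 1 CPM by 2 h (0.0929, 0.295 and 0.0561 CPM), and the step from 2 h to 4 h did not pass the same test (adjusted p = 0.952, 0.173 and 0.951). A trypsin inhibitor gene (evm.TU.Ft2.138) went from 33.1, 31.3 and 30 to 0.204, 0.296 and 0.406 CPM. Of the wall genes, PMR5 (evm.TU.Ft2.4526), which acts on pectin acetylation in Arabidopsis, was 80.7-fold lower, and the peroxidase PER55 (evm.TU.Ft7.663) was 47.1-fold lower. ADK (evm.TU.Ft2.3699), adenosine kinase, was 56.4-fold lower, and the cytochrome P450 CYP71B9 (evm.TU.Ft2.5772) 74-fold lower. Treated values of PMR5 and PER55 were at or below 0.437 and 0.961 CPM in every library.

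Genes along the ABA route rose at several steps, while its receptors were divided. Of 20 tested genes of ABA synthesis and breakdown (of 21 annotated), 12 rose and 5 fell. NCED1 (evm.TU.Ft6.1013), whose enzyme cleaves 9-cis-epoxycarotenoids in the limiting step of ABA synthesis, stood at 149.9, 148 and 147 CPM after 4 h against 2.03, 2.25 and 1.65 CPM (log2 change 6.23, SE 0.069, adjusted p = 8.11e-42). Its 4 h libraries lay wholly above the controls, as for 35.8% of all tested genes. Of the zeaxanthin epoxidase genes, whose enzyme works upstream of it, evm.TU.Ft4.4858 rose to 514 ± 22.4 from 392 ± 4.03 CPM and evm.TU.Ft7.211 fell to 30.6 ± 1.35 from 91.9 ± 0.939 CPM.

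Among 11 tested receptor genes (of 13), 3 rose and 6 fell, with a median log2 change of -0.53. The strongest riser and the most abundant member both carry the name PYL1 and moved in opposite directions. PYL1 evm.TU.Ft6.1763 stood at 181, 174 and 158 CPM against 11.4, 12.4 and 11.2 CPM (log2 change 3.87, SE 0.056, adjusted p = 3.73e-38). PYL1 evm.TU.Ft4.3428 stood at 55.9, 53.4 and 46.7 CPM against 130.4, 135 and 127 CPM (log2 change -1.33, SE 0.052, adjusted p = 6.11e-24). Of the clade A phosphatases, negative regulators of the route, 4 of 7 rose and 1 fell, with a median of 2.74. PP2C51 (evm.TU.Ft1.1645) reached 629, 628 and 649 CPM from 3.29, 3.88 and 3.98 CPM, 171-fold higher (adjusted p = 3.25e-47). PP2CA (evm.TU.Ft5.2684), the most abundant by FPKM, rose 6.66-fold to 597 ± 13.2 CPM, while HAB2 (evm.TU.Ft6.1501) fell by 0.21 on the log2 scale.

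The kinase and transcription factor steps moved upward in the larger share of their genes. Of 12 SnRK2 genes, 9 rose and 2 fell; the name SAPK3 covers both the largest rise, evm.TU.Ft4.535 at 291, 285 and 276 CPM against 8.17, 7.96 and 6.4 CPM, and the largest fall, evm.TU.Ft3.1423, at 11.6 ± 0.643 against 22.2 ± 1.25 CPM. Of 10 tested bZIP factor genes (of 13), 6 rose and 2 fell. ABF2 (evm.TU.Ft2.6071), which binds ABA-responsive elements, was both the largest rise and the most abundant, at 495, 493 and 461 CPM against 22.6, 25.5 and 23.7 CPM (log2 change 4.33, SE 0.046, adjusted p = 1.56e-42). ABF2 and the riser SAPK3 were also higher at 4 h than at 2 h, when they stood at 359.9 ± 11.5 and 209.7 ± 2.05 CPM (adjusted p = 1.29e-12 and 2.77e-12). NCED1, by contrast, was lower at 4 h than at 2 h, when it stood at 209 ± 10.3 CPM (log2 change -0.49, adjusted p = 3.34e-13).

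Genes for desiccation proteins rose in most of the list. Of 23 tested LEA and dehydrin genes (of 24), 18 rose and 1 fell, with a median log2 change of 2.13. Together they took 0.468%, 0.468% and 0.466% of counted reads at 4 h against 0.0981%, 0.0998% and 0.0945% at 0 h. The most abundant by FPKM, LEA5 (evm.TU.Ft6.1647), stood at 1016, 1002 and 987 CPM against 97.2, 101 and 91.8 CPM (log2 change 3.37, SE 0.038, adjusted p = 1.50e-41). Of 18 tested oil body and seed storage genes (of 25), 14 rose and 2 fell. OBAP2B (evm.TU.Ft8.5078), an oil body-associated protein, rose to 24.5 ± 0.572 from 0.829 ± 0.187 CPM, and the 11S globulin gene evm.TU.Ft8.1805 to 149 ± 4.91 from 33.8 ± 2.11 CPM.

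Sugar and solute genes also rose in part. Of 10 tested genes for raffinose family sugars (of 13), 8 rose and 0 fell. RFS6 (evm.TU.Ft6.3528) and RFS1 (evm.TU.Ft5.1181) encode galactosyltransferases that move galactose from galactinol to sucrose. RFS6 stood at 2257, 2264 and 2187 CPM against 791, 821 and 809 CPM, and RFS1 at 821, 815 and 811 CPM against 139, 148 and 131 CPM. At 8 h they stood at 404 ± 8.5 and 83.2 ± 9.41 CPM, below their controls. Only 2 genes matched the proline list by symbol or description, and both rose. They were a pyrroline-5-carboxylate reductase gene, of proline synthesis, and POX1 (evm.TU.Ft5.2663), proline dehydrogenase, which breaks proline down. POX1 went to 298 ± 8.44 from 78.9 ± 2.3 CPM. In the wider deposited pathway of arginine and proline metabolism, 29 of 62 tested genes rose and 20 fell. Starch-degrading enzymes divided, with 15 of 29 tested genes higher and 10 lower: R1 (evm.TU.Ft4.918), the glucan water dikinase that opens starch to attack, rose 12.3-fold to 718 ± 6.73 CPM and beta-amylase BAM1 (evm.TU.Ft7.5172) 4.78-fold to 1154 ± 11.6 CPM, while the beta-amylase BMY1 (evm.TU.Ft3.337) fell to 3.83 ± 0.296 from 17.4 ± 1.45 CPM. In trehalose metabolism 12 of 24 tested genes rose and 10 fell, among them TPS11 (evm.TU.Ft5.254), which rose 4.98-fold, and the phosphatase TPPD (evm.TU.Ft5.2115), which was 7.28-fold lower. The wall invertase INV1 (evm.TU.Ft3.911), which splits sucrose outside the cell, stood at 302, 304 and 310.3 CPM against 22.9, 23.8 and 23 CPM. The deposited pathway of starch and sucrose metabolism leaned the other way: 53 of 159 tested genes rose and 75 fell, with a median log2 change of -0.21.

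**Figure D2:**
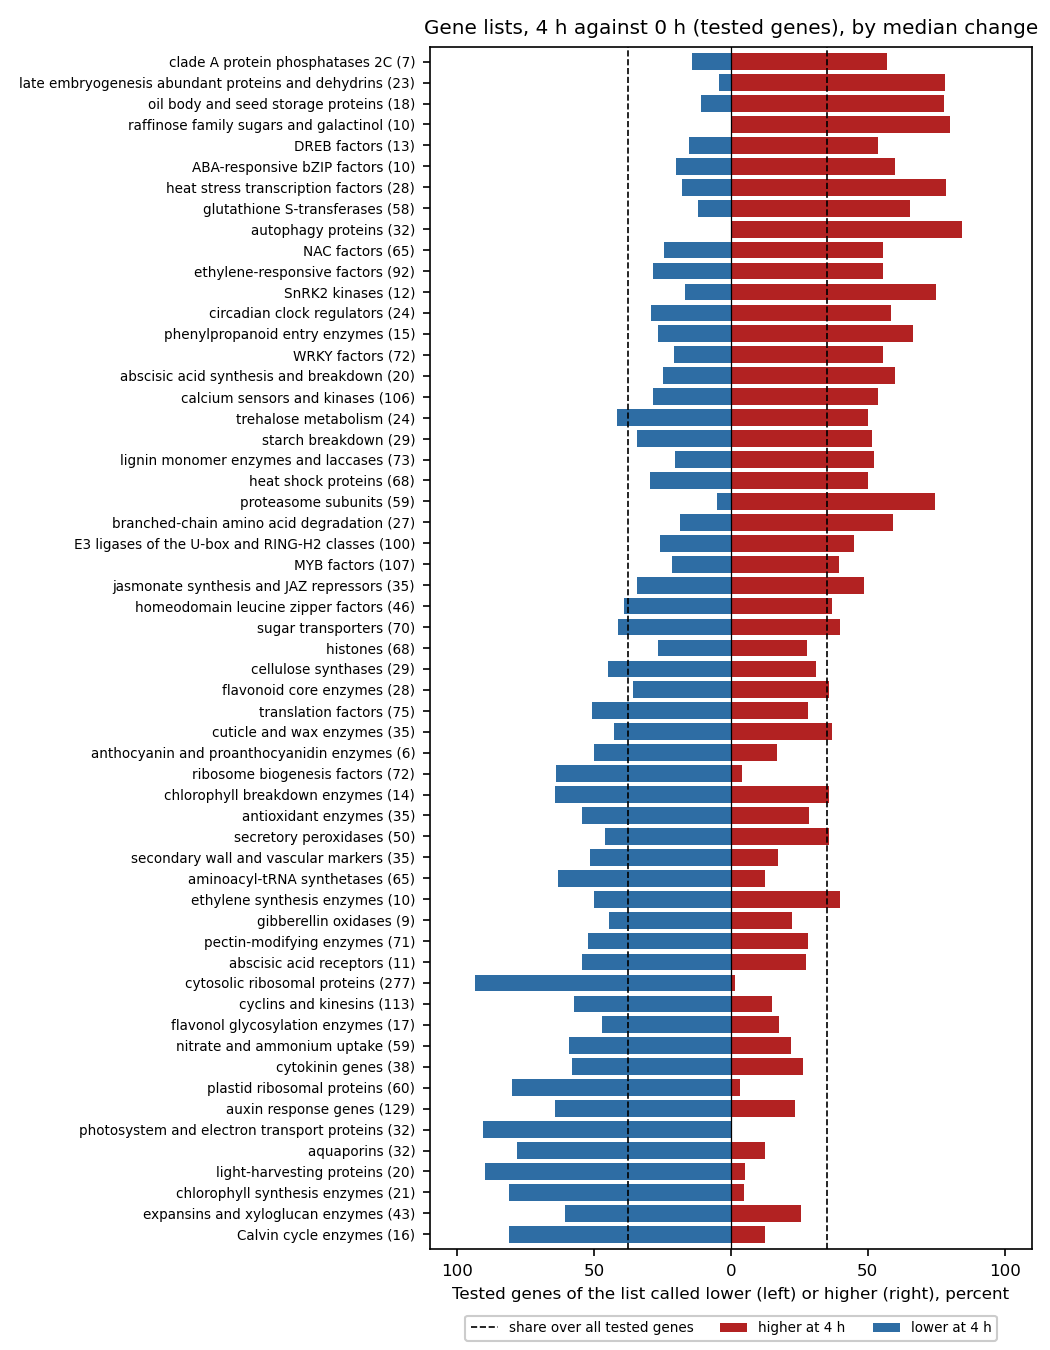
Percent of the tested genes of each list called higher (right, red) or lower (left, blue) at 4 h against 0 h, for lists with at least 6 tested genes, ordered by median log2 change; the number tested is in brackets and dashed lines mark the shares over all tested genes (35.1% higher, 37.7% lower). LEA genes and autophagy proteins stand near the top, and Calvin cycle, light-harvesting and photosystem genes near the bottom.

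Stress-related transcription factor families were weighted toward higher expression. Rises and falls numbered 7 and 2 of 13 tested DREB genes, 51 and 26 of 92 ethylene-responsive factors, 36 and 16 of 65 NAC factors, 40 and 15 of 72 WRKY factors and 22 and 5 of 28 heat stress factors. Of 107 MYB factors 42 were higher, a share near that of all genes, and 23 lower, and homeodomain leucine zipper factors were even, with 17 and 18 of 46. The NAC gene JA2L (evm.TU.Ft2.3431), the most abundant of its family, stood at 833, 817 and 775 CPM against 102, 118 and 107 CPM (log2 change 2.89, SE 0.042, adjusted p = 3.61e-38). Another gene of that name (evm.TU.Ft2.5584) rose further, to 202 ± 2.69 from 6.21 ± 0.813 CPM. JA2L is known from tomato, where it acts in stomatal behaviour.

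HOX22 (evm.TU.Ft7.3765), of the homeodomain leucine zipper class, stood at 724, 714 and 728 CPM against 66.1, 74.9 and 69.9 CPM, while ATHB-13 (evm.TU.Ft1.297) fell to 22.2 ± 0.746 from 91.6 ± 5.03 CPM. WRKY24 (evm.TU.Ft2.5314), the most abundant WRKY gene, rose 2.85-fold. The name HSFA2C covers a gene that rose, evm.TU.Ft6.1491 at 326 ± 7.19 from 41 ± 0.628 CPM, and a gene that fell, evm.TU.Ft2.153 at 12.7 ± 0.997 from 39 ± 2.27 CPM. Heat shock factors bind the promoters of chaperone genes, and of 68 tested heat shock proteins 34 rose and 20 fell. The most abundant of these, the cytosolic chaperone HSC-2 (evm.TU.Ft2.2877), did not pass the test (log2 change 0.03, SE 0.029, adjusted p = 0.314), and its sign depended on the scaling. Against 2 h, 10 heat shock genes were higher at 4 h and 36 lower, beside 26.3% and 26.9% of all tested genes.

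The highest medians among 756 GO terms with at least 20 tested genes belonged to terms for chitin. Chitinases cut the chitin of fungal walls and are classed with plant defence proteins. In the term "chitinase activity" 18 of 20 tested genes rose and 2 fell, with a median log2 change of 2.70, and in "response to chitin" 76 of 115 tested genes rose and 20 fell, with a median log2 change of 0.99. Cht5 (evm.TU.Ft4.6199), the most abundant chitinase gene, stood at 2663, 2728 and 2732 CPM against 265, 284 and 294 CPM (log2 change 3.27, SE 0.037, adjusted p = 9.37e-42). EP3 (evm.TU.Ft4.6193), an endochitinase, rose more steeply, to 1515, 1653 and 1653 CPM from 53.5, 41.1 and 41.5 CPM. For both genes the 4 h libraries lay wholly above the controls, as for 35.8% of all tested genes. At 8 h Cht5 was again near its controls, at 314 ± 5.28 CPM, and EP3 was below its controls, at 35.3 ± 3.42 CPM. The median of the chitinase term was 1.66 at 2 h and 0.02 at 8 h, measured against the same controls. CHIT3 (evm.TU.Ft8.5227), an acidic endochitinase, fell to 7.25 ± 0.515 from 17.5 ± 0.511 CPM. In "response to chitin" the largest rise was XERICO (evm.TU.Ft6.49), a RING-type ubiquitin ligase that raises ABA levels in Arabidopsis, at 53.8, 53.9 and 52.5 CPM against 1.18, 1.28 and 1.37 CPM. Chitinases of neighbouring families can be near-identical, and how reads shared by copies were counted is not given in the sources used here.

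Photosynthesis genes fell in almost every class. Of 20 light-harvesting genes 18 fell and 1 rose, of 32 tested photosystem and electron transport genes 29 fell and 0 rose, and of 16 Calvin cycle genes 13 fell and 2 rose, with medians of -0.84, -0.79 and -1.38. Calvin cycle genes took 4.72%, 4.81% and 5.04% of counted reads in the controls and 1.43%, 1.43% and 1.43% at 4 h. Light-harvesting genes took 3.82%, 3.83% and 4.09% and 1.85%, 1.85% and 1.88%. The most abundant Calvin cycle gene, RBCS6 of the small Rubisco subunit (evm.TU.Ft5.2621), which serves carbon fixation, fell from 13384, 13481 and 14375 to 5232, 5279.8 and 5236 CPM (log2 change -1.39, SE 0.031, adjusted p = 3.39e-32).

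Phosphoribulokinase (evm.TU.Ft2.692), which regenerates the carbon acceptor of Rubisco, fell furthest in its list, from 1692, 1725 and 1805 to 254, 254 and 242 CPM, 6.96-fold lower. CAB36 (evm.TU.Ft8.3607), the most abundant chlorophyll a-b binding protein gene, fell from 8512, 8527 and 9116 to 2999, 3020.4 and 3035 CPM. The exception in its list was CAB3C (evm.TU.Ft8.5180), which rose to 245 ± 5.91 from 158 ± 14.8 CPM. PSBS (evm.TU.Ft2.3625), needed for the dissipation of excess light, was 5.4-fold lower, and PSBR (evm.TU.Ft1.2810), of photosystem II, only 1.24-fold lower. CP12-2 (evm.TU.Ft5.370), a small protein that inhibits Calvin cycle enzymes in the dark, carries the same GO term as the enzymes and rose, to 1165, 1167 and 1043 CPM from 250.1, 249 and 234 CPM. Ferredoxins were divided: PETF (evm.TU.Ft1.1129), Ferredoxin-1, fell to 391 ± 8.56 from 2264 ± 110.4 CPM, and FD3 (evm.TU.Ft6.713) rose to 192 ± 8.86 from 76.6 ± 5.5 CPM.

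Chlorophyll synthesis fell with photosynthesis, while breakdown was divided. Of 21 tested synthesis genes 17 fell and 1 rose, and of 14 breakdown genes 9 fell and 5 rose. HEMA1 (evm.TU.Ft4.5998), glutamyl-tRNA reductase at the entry of the pathway, fell from 241, 245 and 268 to 28.2, 27.7 and 28.4 CPM (log2 change -3.16, SE 0.05, adjusted p = 5.14e-37), and CRD1 (evm.TU.Ft5.1640) from 1299 ± 79.8 to 286 ± 0.662 CPM. In the opposite direction, SGR1 (evm.TU.Ft4.1648), a STAY-GREEN protein that removes magnesium from chlorophyll a, rose from 27.6, 29 and 30.2 to 126, 133 and 126 CPM. NYC1 (evm.TU.Ft3.1695), chlorophyll b reductase, rose 3.62-fold, whereas chlorophyllase CLH2 (evm.TU.Ft7.409) was 3.02-fold lower. Clock regulators changed as well, with 14 of 24 higher and 7 lower. LHY (evm.TU.Ft5.2081), a morning-phased repressor, fell from 1260.2, 1270.0 and 1286 to 65.1, 67.2 and 58.4 CPM, and APRR5 (evm.TU.Ft3.2199), a day-phased pseudo-response regulator, rose from 25.6, 25.1 and 22.3 to 271, 261 and 265 CPM. Their part in the photosynthesis result was not tested.

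**Figure D3:**
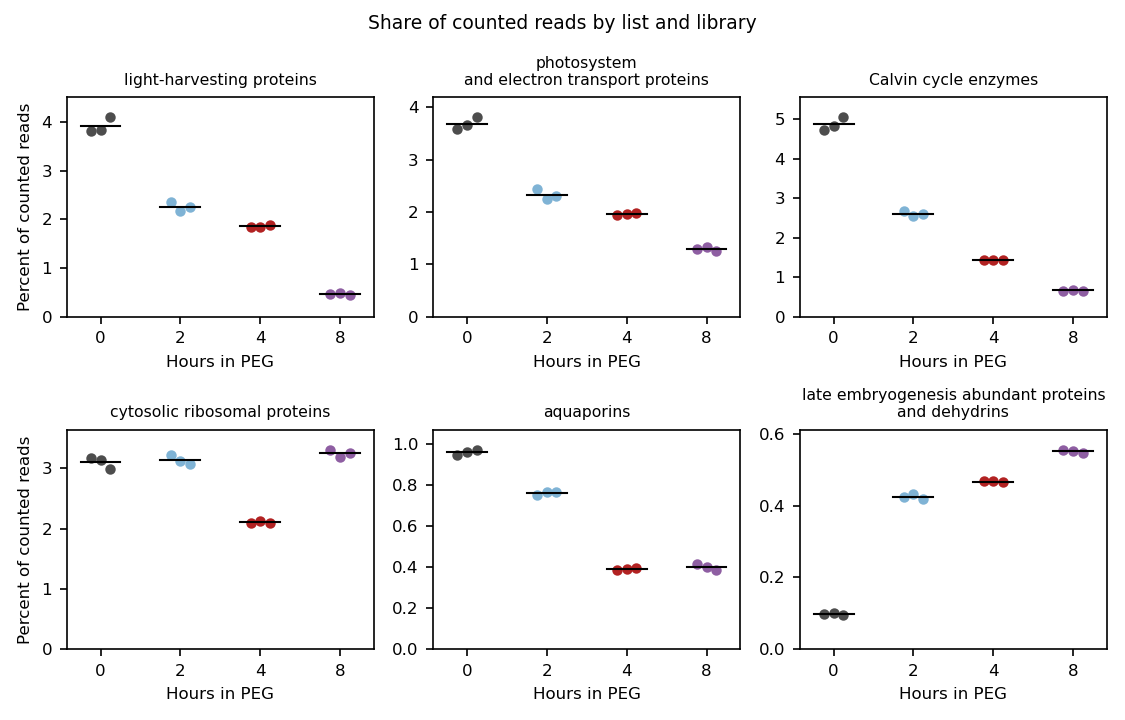
Percent of counted reads taken by each list in each library (points) and their mean (line) after 0, 2, 4 and 8 h in PEG; each y axis starts at 0. At 4 h Calvin cycle genes stood at a mean of 1.43% against 4.86% at 0 h, cytosolic ribosomal proteins at 2.11% against 3.1%, and LEA proteins at 0.467% against 0.0974%.

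Most genes for cytosolic ribosomal proteins fell at 4 h. Of 277 tested cytosolic ribosomal protein genes (of 293), 259 fell and 4 rose, with a median log2 change of -0.55. Their share of counted reads was 3.17%, 3.13% and 2.99% at 0 h and 2.1%, 2.13% and 2.1% at 4 h. The list was lower at 4 h than at both neighbouring times: 262 of the 277 were lower at 4 h than at 2 h (background 26.9%), and 256 were higher at 8 h than at 4 h (background 33.8%). Against the shared controls the median of the list was 0.03 at 2 h and -0.09 at 8 h. RPL23A (evm.TU.Ft7.1037), the largest fall, stood at 24.3, 23.5 and 25.2 CPM against 59, 63.8 and 61.8 CPM (log2 change -1.34, SE 0.061, adjusted p = 9.63e-22). RPS28 (evm.TU.Ft2.3601), the most abundant by FPKM, did not pass the test (log2 change -0.03, SE 0.044, adjusted p = 0.584). Under library-size scaling it passed the same test narrowly (log2 change -0.094, adjusted p = 0.0485).

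Other parts of protein synthesis fell alongside, and parts of protein turnover rose. Of 60 tested plastid ribosomal protein genes 48 fell and 2 rose, of 72 ribosome biogenesis factors 46 fell and 3 rose, and of 65 aminoacyl-tRNA synthetases 41 fell and 8 rose. The gene cbf5 (evm.TU.Ft8.2519), whose protein modifies ribosomal RNA, fell to 31.8 ± 2.35 from 66 ± 1.61 CPM, and the elongation factor 1-alpha gene evm.TU.Ft8.3652, which brings tRNAs to the ribosome, to 1104 ± 16.6 from 1545 ± 33 CPM. Among translation factors 38 of 75 fell and 21 rose; the largest rise was the release factor ERF1-3 (evm.TU.Ft2.5383), which ends translation, at 96.9 ± 4.77 from 21.4 ± 0.258 CPM.

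Autophagy delivers cell material to the vacuole, and 27 of 32 tested autophagy genes rose while 0 fell, with a median of 0.65. ATG8F (evm.TU.Ft8.2595), a ubiquitin-like protein of the autophagosome membrane, stood at 457, 443 and 438 CPM against 156, 166 and 160.1 CPM (log2 change 1.47, SE 0.037, adjusted p = 1.98e-30). Against 2 h, 26 autophagy genes were higher at 4 h and 0 lower; at 8 h, 19 were lower than at 4 h and 2 higher (background 31.7% and 33.8%). That later fall depended on the scaling, with 10 lower and 11 higher under library-size scaling. Proteasome subunits showed 44 rises and 3 falls among 59 tested genes, with a median of 0.26, and PAC1 (evm.TU.Ft7.5055), a subunit of the core particle, rose from 122 ± 3.93 to 143 ± 3.68 CPM.

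Breakdown of branched-chain amino acids, which can feed respiration when sugar is short, rose in 16 and fell in 5 of 27 tested genes. BCAT2 (evm.TU.Ft2.5992), the aminotransferase of the first step, rose from 35.2, 43.2 and 39.7 to 328, 323 and 317 CPM, and BCDH (evm.TU.Ft2.2029), of the dehydrogenase complex that follows, from 182, 182 and 182 to 505, 493 and 492 CPM. The 4 h libraries of both genes lay wholly above the controls, as for 35.8% of all tested genes. In the deposited pathway of fatty acid degradation, 37 of 67 tested genes rose and 19 fell, with a median log2 change of 0.54. AIM1 (evm.TU.Ft6.2008), which carries out peroxisomal beta-oxidation, rose from 4.58, 4.83 and 3.54 to 108, 109 and 109 CPM, and PED1 (evm.TU.Ft6.2799), the thiolase of the same cycle, from 265 ± 2.59 to 728 ± 11.5 CPM. SDP1 (evm.TU.Ft7.2889), a lipase that releases fatty acids from stored oil, rose 2.93-fold to 717 ± 12.5 CPM.

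Water channel and wall-loosening genes fell. Of 32 tested aquaporin genes (of 41) 25 fell and 4 rose, with a median of -0.79, and 22 were lower at 4 h than at 2 h while 5 were higher (26.9% and 26.3% of all tested genes). Together they took 0.946%, 0.959% and 0.972% of counted reads at 0 h and 0.385%, 0.39% and 0.396% at 4 h. PIP2-1 (evm.TU.Ft8.2218), a water channel of the plasma membrane, fell from 29.1, 25.6 and 26.5 to 2.36, 3.02 and 3.25 CPM (log2 change -3.24, SE 0.12, adjusted p = 2.70e-24). The NIP-type gene evm.TU.Ft5.815 rose, to 25.6 ± 1.72 from 6.24 ± 0.62 CPM.

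Expansins loosen walls and xyloglucan endotransglucosylases recut their hemicellulose; of 43 tested genes of these families 26 fell and 11 rose, with a median of -0.95. EXPA1 (evm.TU.Ft1.2765) fell from 57.1, 58.1 and 59.6 to 6.26, 4.59 and 5.02 CPM (log2 change -3.46, SE 0.084, adjusted p = 7.53e-31), while EXLB1 (evm.TU.Ft4.565), an expansin-like gene, rose from 7.92, 7.44 and 7.97 to 100, 105 and 104 CPM. Other wall groups were mixed, with 37 falls and 20 rises among 71 pectin-modifying enzymes and 13 and 9 among 29 cellulose synthases and related enzymes. Polygalacturonase At1g48100 (evm.TU.Ft1.2653), which cuts pectin, was 17.9-fold lower, and CESA6 (evm.TU.Ft2.5495), of primary wall cellulose synthesis, 2.73-fold lower. Among secondary wall and vascular markers 18 of 35 fell and 6 rose; FLA9 (evm.TU.Ft2.6530), a fasciclin-like arabinogalactan protein, fell from 78.1 ± 5.12 to 9.8 ± 1.23 CPM. In the cuticle and wax list 13 rose and 15 fell of 35, close to the background, yet CER26 (evm.TU.Ft5.1687), which extends wax chains in Arabidopsis, rose from 1.81, 1.98 and 2.2 to 71.4, 77.4 and 78.9 CPM.

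Auxin and cytokinin are growth hormones, and falls outnumbered rises in both lists. Of 129 tested auxin genes (of 149) 83 fell and 30 rose, and of 38 cytokinin genes 22 fell and 10 rose. The cytokinin median was -0.63, but 0.0023 under a stricter filter on low counts. SAUR67 (evm.TU.Ft5.316), of an auxin-induced family tied to cell elongation, fell from 23.7, 27.2 and 25.1 to 1.51, 1.39 and 1.34 CPM. The auxin-conjugating enzyme gene GH3.1 (evm.TU.Ft8.1200) rose from 2.11, 1.87 and 2.58 to 29.8, 31.7 and 33.4 CPM. ARR9 (evm.TU.Ft5.1613), a cytokinin-induced response regulator, was 7.75-fold lower, and PIN1A (evm.TU.Ft3.2212), an auxin efflux carrier, 3.48-fold lower. CYP711A1 (evm.TU.Ft6.3229), an enzyme of strigolactone synthesis filed under auxin polar transport, fell from 97.7, 109 and 108 to 5.47, 6.84 and 4.81 CPM.

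Many cell division genes were lower at 4 h than at the times on either side. Of 113 tested cyclin and kinesin genes 65 fell and 17 rose against 0 h. Against 2 h, 44 were lower at 4 h and 7 higher (26.9% and 26.3% of all tested genes). At 8 h 65 were higher than at 4 h and 11 lower (33.8% and 31.7% of all tested genes). Histone genes were balanced against 0 h (19 higher and 18 lower of 68), but 40 were lower and 10 higher at 4 h than at 2 h, and 45 were higher and 5 lower at 8 h than at 4 h, against those same shares. CKS1 (evm.TU.Ft8.1515), a subunit that binds cyclin-dependent kinases, fell from 90.8, 95 and 90.3 to 35.8, 37.1 and 39.9 CPM. The linker histone gene evm.TU.Ft6.756 (Histone H1.2) rose from 210.1, 216 and 203 to 410.3, 413 and 409.8 CPM.

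Jasmonate and ethylene genes were split. In the jasmonate list 17 of 35 tested genes rose and 12 fell. OPR11 (evm.TU.Ft6.1317), described as an oxophytodienoate reductase, rose from 0.165, 0.136 and 0.33 to 67.9, 69.2 and 71 CPM. LOX2.1 (evm.TU.Ft2.1281), a plastid lipoxygenase of the step that starts jasmonate synthesis, fell from 107, 96.7 and 109 to 2.24, 3.23 and 4.71 CPM, and at 8 h it stood at 245 ± 17.6 CPM. The ethylene-forming oxidases ACO3 (evm.TU.Ft8.3626) and ACO1 (evm.TU.Ft2.6493) were 4.49-fold and 2.42-fold lower.

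Phenolic metabolism, for which Tartary buckwheat is known through its flavonol rutin, moved in different directions by branch. The phenylpropanoid entry enzymes rose in 10 and fell in 4 of 15 tested genes, while flavonoid core enzymes were even (10 and 10 of 28) and flavonol glycosylation enzymes fell in 8 and rose in 3 of 17. Chalcone synthase CHS (evm.TU.Ft3.2401), the entry of flavonoid synthesis, rose from 340.2, 323 and 305 to 421, 425 and 428 CPM (log2 change 0.40, SE 0.038, adjusted p = 6.07e-12). Flavonol synthase FLS (evm.TU.Ft5.634), which makes the flavonol core of rutin, fell from 23.2, 22.8 and 25.7 to 8.06, 6.81 and 9.86 CPM. CHS and FLS were picked by rule, so their opposite directions do not describe the pathway as a whole. DFR (evm.TU.Ft4.5802), of the anthocyanin branch, fell from 165 ± 1.93 to 141 ± 7.01 CPM. Lignin monomer enzymes and laccases rose in 38 and fell in 15 of 73 tested genes; LAC9 (evm.TU.Ft5.991), a laccase, rose from 5.24, 4.26 and 3.21 to 201, 210.5 and 209.7 CPM, whereas LAC14 was among the largest falls. Neighbouring CYP98A2 genes, of the hydroxylation step toward lignin, (neighbours by ID, and possibly sharing reads) went opposite ways: evm.TU.Ft7.3001 rose to 115 ± 5.63 from 27.7 ± 1.6 CPM and evm.TU.Ft7.2999 fell to 22.8 ± 0.862 from 140.5 ± 9.34 CPM.

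Detoxification and redox genes also divided by class. Glutathione S-transferases, which attach glutathione to reactive compounds, rose in 38 and fell in 7 of 58 tested genes. GSTU8 (evm.TU.Ft6.165) rose from 0.219, 0.0272 and 0.0549 to 26.1, 22.9 and 27.3 CPM, and its 2 h mean was still 0.511 ± 0.144 CPM. Antioxidant enzymes fell in 19 and rose in 10 of 35. The plastid peroxiredoxin PRXQ (evm.TU.Ft6.3531) fell from 155 ± 9.5 to 36 ± 3.04 CPM, while a glutathione reductase gene (evm.TU.Ft5.1723), which regenerates reduced glutathione, rose from 24.9, 24.9 and 23.1 to 243, 239 and 250.1 CPM. The most abundant antioxidant gene, catalase CAT2 (evm.TU.Ft5.1552), rose by a small amount, to 2457, 2439 and 2434 from 2151, 2059.6 and 2233 CPM. Secretory peroxidases fell in 23 and rose in 18 of 50 tested genes, and Peroxidase 5 (evm.TU.Ft3.3736) rose from 0.302, 0.0543 and 0.0824 to 36.4, 38.4 and 40.2 CPM.

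Nitrate and ammonium uptake genes fell in 35 and rose in 13 of 59 tested genes, led by the ammonium transporter AMT1-3 (evm.TU.Ft2.4506), which went from 30.3, 33.7 and 38.6 to 2.13, 1.87 and 2.00 CPM. Sugar transporters were near the background (28 higher and 29 lower of 70). The sucrose exporter family holds a gene that rose from near silence, SWEET14 evm.TU.Ft5.554, at 35.5, 32.8 and 34.5 CPM against 0.0548, 0.217 and 0.0824 CPM. Calcium sensors and kinases rose in 57 and fell in 30 of 106. CBL1 (evm.TU.Ft4.529), a calcium sensor, rose from 21.3 ± 1.33 to 144 ± 4.57 CPM, while CIPK1 (evm.TU.Ft4.790), a kinase that such sensors bind, fell from 59.5 ± 0.985 to 15.4 ± 0.594 CPM.

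Across the 97 deposited pathways with at least 20 tested genes, 49 medians lay above 0 and 48 below. The highest belonged to isoquinoline alkaloid biosynthesis (0.79), fatty acid degradation, galactose metabolism (0.53) and stilbenoid, diarylheptanoid and gingerol biosynthesis (0.50). The alkaloid pathway was nearly even in counts, with 10 of 22 tested genes higher and 9 lower. Rises and falls numbered 29 and 19 of 55 in galactose metabolism and 18 and 12 of 35 in the stilbenoid pathway. No compound of these pathways was measured here. In the alkaloid pathway another TYDC gene (evm.TU.Ft3.1032) rose to 78.8 ± 2.62 from 10.3 ± 2.41 CPM, opposite to the TYDC gene among the largest falls. The aminotransferase gene TAT2 (evm.TU.Ft2.3374), the most abundant of that pathway, rose 7.06-fold. The lowest medians belonged to antenna proteins (-0.84), photosynthesis (-0.75), ribosome (-0.56), porphyrin and chlorophyll metabolism (-0.56) and steroid biosynthesis (-0.55). In steroid biosynthesis 6 of 30 tested genes rose and 21 fell, with a median log2 change of -0.55; DIM (evm.TU.Ft6.226), a sterol reductase, fell to 53.7 ± 2.52 from 149.7 ± 7.32 CPM, and CYP710A11 (evm.TU.Ft4.41), which makes stigmasterol in tomato, rose to 148 ± 1.48 from 19.3 ± 1.03 CPM. Among GO terms, reductive pentose-phosphate cycle (-1.34), auxin polar transport (-1.21) and xyloglucan:xyloglucosyl transferase activity (-1.11) had the lowest medians of 756.

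The steps from 2 h to 4 h and from 4 h to 8 h were tested directly. Between 2 h and 4 h, of all tested genes 11729 (53.2%) differed, 5803 higher (26.3%) and 5926 lower (26.9%); under library-size scaling the split was 4432 higher and 7518 lower. Between 4 h and 8 h 14445 genes (65.5%) differed, 7452 higher (33.8%) and 6993 lower (31.7%) at 8 h, against 11351 and 4711 under library-size scaling, which moves the median of all genes by 0.22 on the log2 scale. Against the controls shared with 4 h, 63.2% of genes differed at 2 h and 70.9% at 8 h.

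**Figure D4:**
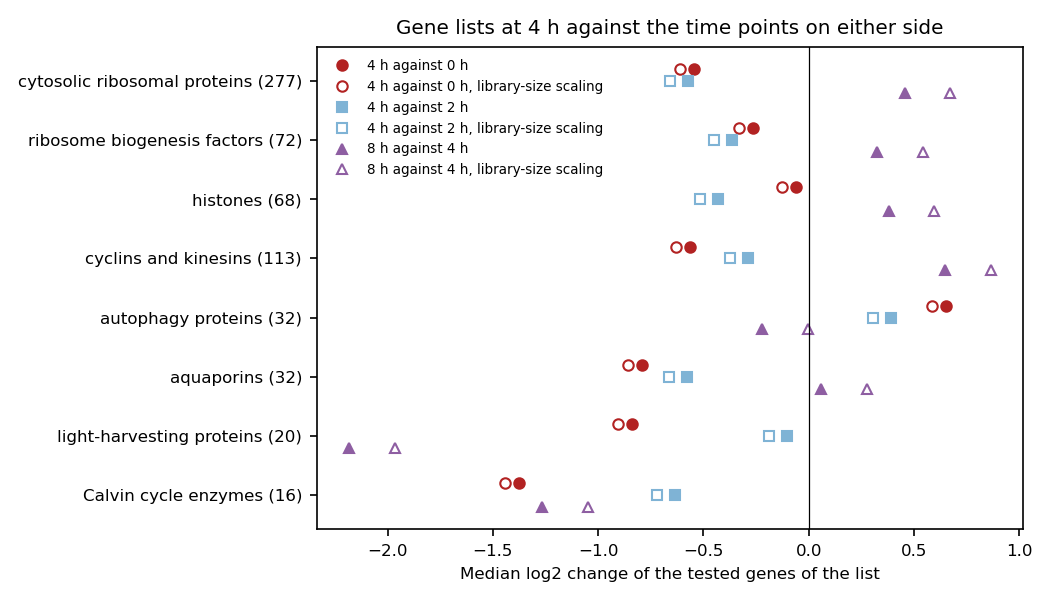
Median log2 change of the tested genes of 8 lists (number tested in brackets) at 4 h against 0 h, at 4 h against 2 h and at 8 h against 4 h, with TMM (filled) or library-size scaling (open). Cytosolic ribosomal proteins stand at -0.55, -0.57 and 0.46, and autophagy proteins at 0.65, 0.39 and -0.22 with TMM; for autophagy at 8 h the count of falls does not hold under library-size scaling.

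Several genes stood high at 4 h and low at every other time. GULLO6 (evm.TU.Ft2.4941), of the gulonolactone oxidase family, measured 42.9, 40.3 and 42.3 CPM at 4 h, 0.613, 0.293 and 0.387 CPM at 2 h and 0.156, 0.0902 and 0.339 CPM at 8 h. Among described genes called against both 0 h and 2 h and averaging at least 10 CPM, it had the largest rise over 2 h. Its log2 change was 6.58 (SE 0.16, adjusted p = 6.74e-30 by edgeR's quasi-likelihood test). A proteinase inhibitor gene (evm.TU.Ft3.5046) measured 214, 254 and 233 CPM at 4 h, 7.96, 6.75 and 10.4 CPM at 2 h and 0.807, 0.932 and 0.704 CPM at 8 h. BGLU12 (evm.TU.Ft3.2514), a beta-glucosidase that releases sugar from stored conjugates, measured 416, 438 and 408 CPM at 4 h, 23.7, 27.3 and 24.4 CPM at 2 h and 2.97, 3.34 and 2.48 CPM at 8 h. Control means of the 3 genes were 0.347 ± 0.105, 2.74 ± 0.403 and 8.78 ± 2.25 CPM. Their 4 h libraries lay above the other 9 libraries of the series, which for the 2 h libraries was a condition of choice. NFD4 (evm.TU.Ft5.271) and berberine bridge enzyme-like 8 were likewise 19.5-fold and 17.8-fold higher at 4 h than at 2 h, and 17.5-fold and 91.6-fold lower at 8 h than at 4 h. DTX18, LPPE2, OPR11 and LAC9 also fell from 4 h to 8 h, to 0.176, 0.173, 2.51 and 4.17 CPM.

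The largest falls from 2 h to 4 h, ranked under the same conditions, differed in where they stood against the control. The dirigent protein gene DIR (evm.TU.Ft6.1705), whose class guides the coupling of phenolic radicals, measured 468, 439 and 389.8 CPM at 2 h and 52.6, 45.9 and 55.3 CPM at 4 h, still above its controls at 34.6, 33.9 and 37 CPM. PIP2-2 (evm.TU.Ft2.2724), an aquaporin, had risen to 30.7, 30.6 and 26.5 CPM at 2 h and stood at 2.07, 3.17 and 2.78 CPM at 4 h, below its controls at 5.24, 4.86 and 4.89 CPM. COL2 (evm.TU.Ft5.2570), a CONSTANS-like zinc finger protein, and GAPN (evm.TU.Ft8.359), a cytosolic glyceraldehyde-3-phosphate dehydrogenase that forms NADPH, fell at each step, from 52.3 ± 4.54 and 177 ± 13.6 CPM at 0 h to 2.67 ± 0.395 and 6.99 ± 0.977 CPM at 4 h. CYP71B9 stood at 6.35, 3.84 and 5.64 CPM at 2 h and 0.495, 0.296 and 0.25 CPM at 4 h, with no count in any library at 8 h.

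**Figure D5:**
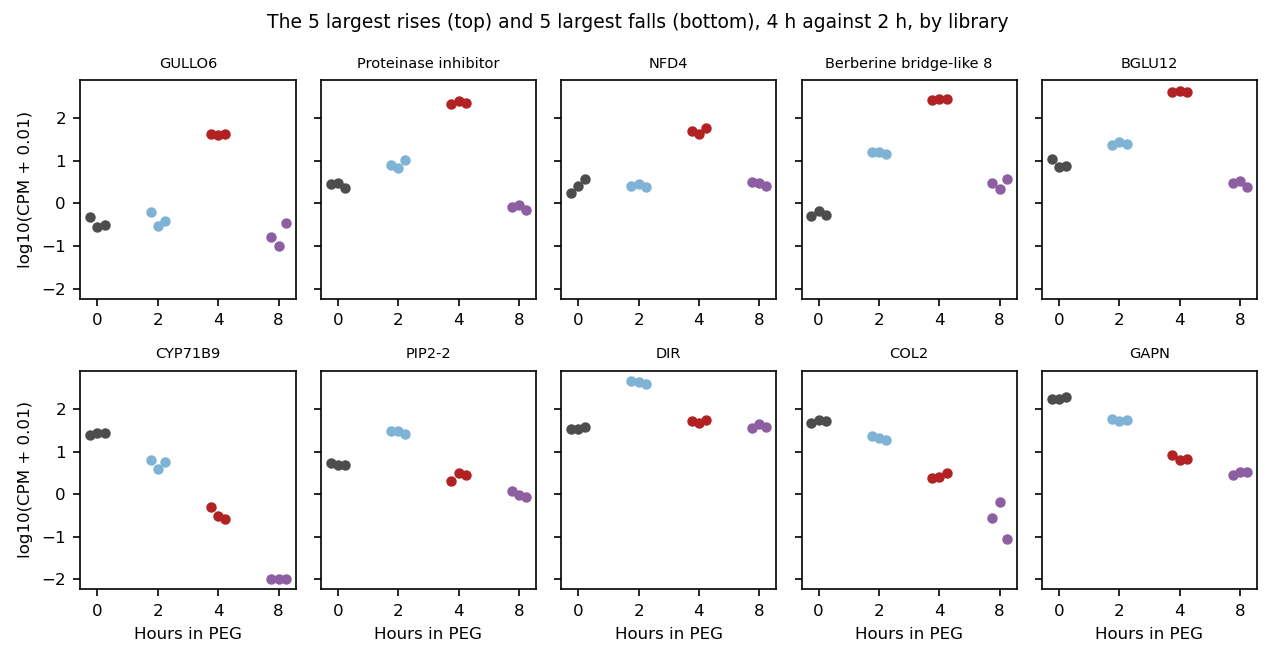
Levels of the 5 largest rises (top) and 5 largest falls (bottom) from 2 h to 4 h, as log10(CPM + 0.01) with 1 point per library after 0, 2, 4 and 8 h in PEG; a point at -2 is a library with no count. All 5 rises peak at 4 h. The genes were chosen among described genes with every 4 h library beyond the 2 h libraries.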

How the data were processed

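RNA was measured in 12 leaf and stem libraries by RNA sequencing, 3 per group. The authors deposited raw counts per gene, and FPKM values, which scale those counts by depth and coding length (every length is a multiple of 3), in the same tables with gene descriptions, pathways and GO terms. The submitters' processing notes name fastp, HISAT2, HTSeq and DESeq2, without versions or settings. The genome build, the strand of counting and the handling of reads shared by near-identical genes are not given in the sources used here, so values of close paralogs and of genes overlapping on opposite strands are uncertain.

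Genes passing edgeR's filterByExpr (minimum count 10 in enough libraries, minimum total 15) were kept, 22063 of 26750. Counts were scaled by TMM and fitted across all 12 libraries with edgeR's quasi-likelihood test, without a replicate block; adjusted p-values are Benjamini-Hochberg over all genes tested, with a threshold of 0.05. The common biological coefficient of variation was 4.9%. Replicates differed by more than sampling noise (chi-square per degree of freedom 2.847 to 5.421 within the 0 h and 4 h groups). On simulated data for 4 h against 0 h (21318 genes), 68.2%, 92.5% and 100% of genes changed by 0.5, 1 and 2 on the log2 scale were recovered, and 11 of 185 calls were false. The simulation changed only 200 genes and kept all others equal across groups. In the data 72.8% of tested genes were called, so these rates do not carry over to this comparison.

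Gene lists were matched by words in the deposited symbols or descriptions, with hand-checked exclusions by description. The members and lists were chosen with earlier results of these data known. Genes were named by rule. The 8 largest rises and falls were ranked among called genes with a described product. In these, all 3 treated libraries also had to lie beyond all 3 controls. Per list, the largest called rise and fall and the most abundant member were named (lists that are only summarised name fewer). The 5 largest rises and falls of 4 h against 2 h were ranked among described genes called in that comparison and against 0 h. All 3 libraries of 4 h also had to lie beyond those of 2 h. Rises and falls needed a mean of at least 10 CPM. Non-overlap is no separate support where it was a condition of choice. Of 22063 tested genes, 17357 had a description. Genes named for a pathway or GO term follow the list rule, applied to the 8 highest and 8 lowest after values were seen. The clock and other list genes fall under the list rule as well. Alternatives were DESeq2 (test and size factors), library-size scaling, limma on log2(FPKM + a pseudocount of 0.1 or 1), other low-count filters, the 6 libraries alone, a replicate block, a minimum change of 2-fold and omission of single libraries. Of these, library-size scaling and all alternatives for 2 h and 8 h against 0 h were chosen after seeing the data. Tools were R 4.3.3, edgeR 4.0.16, limma 3.58.1, DESeq2 1.42.0 and, for summaries and plots, matplotlib 3.10.9, numpy 2.4.6 and pandas 2.3.3 under Python 3.11.15.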

Additional observations from a re-analysis of the deposited data

Results flagged for a closer look

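For the following genes every library at 4 h lay on one side of the controls and every library at 2 h or 8 h on the other. Both comparisons share the control libraries, and the values given are the direct tests between the times by edgeR's quasi-likelihood test, all past the threshold.

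Between 4 h and 8 h, the log2 change was -1.82 for the zeaxanthin epoxidase gene evm.TU.Ft4.4858, -3.29 for RFS1 and -2.47 for RFS6 of raffinose synthesis, and -2.34 for the proline dehydrogenase POX1. All 4 stood above the control at 4 h and below it at 8 h. The same held for the endochitinase EP3 (-5.51), the proteinase inhibitor gene evm.TU.Ft3.5046 (-8.17), BGLU12 (-7.17) and the light-harvesting gene CAB3C (-2.29). Catalase CAT2 was above the control only at 4 h: its log2 change was 0.30 from 2 h to 4 h and -0.72 from 4 h to 8 h.

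LOX2.1 went the other way, below the control at 4 h and above it at 8 h (6.18), as did DFR by a small amount (0.44). From 2 h to 4 h, FLS (-1.92) and the aquaporin PIP2-2 (-3.45) passed from above the control to below it.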

How the results depend on the processing

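The 16060 calls at 4 h against 0 h numbered 12438 to 16418 under other tools, scalings and filters, and 15462 to 15557 when any library was left out (7504 to 7539 higher and 7958 to 8034 lower). Leaving out libraries gave 10827 to 11000 calls at 4 h against 2 h (5383 to 5485 higher, 5431 to 5526 lower) and 13648 to 13808 at 8 h against 4 h (6933 to 7040 higher, 6714 to 6773 lower). At 2 h against 0 h it gave 13186 to 13338 and at 8 h against 0 h 14973 to 15089. A 2-fold minimum moved every count: to 5976 at 4 h against 0 h (2855 higher, 3121 lower), 1884 at 4 h against 2 h (916, 968), 3881 at 8 h against 4 h (1681, 2200), 4101 at 2 h against 0 h (2169, 1932) and 5957 at 8 h against 0 h (2692, 3265), since fewer genes meet both conditions. Genes higher at 8 h than at 4 h numbered 11351 under library-size scaling and 11379 with limma on log2(FPKM + 1) and no filter. Genes lower numbered 4482 and 4469 with limma at pseudocounts of 0.1 and 1. FPKM values are scaled by depth without TMM, so the limma fits are not a check separate from library-size scaling. How much of the shift this makes up was not tested. At 8 h against 0 h, library-size scaling moved the median of all genes by 0.15 and gave 10206 higher and 6124 lower.

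Replicate numbers did not pair the samples: deviations of same-numbered libraries at 0 h and 4 h correlated at -0.00832 to 0.00786. With the replicate block, 15999 genes were called at 4 h against 0 h (7714 higher, 8285 lower), 11666 at 4 h against 2 h and 14398 at 8 h against 4 h.

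No gene named in the text and called at 4 h against 0 h lost its call under the other tools, scalings, filters, block or omissions. The 2-fold minimum, by construction, leaves out named calls under 2-fold, such as HAB2, PSBR, CHS, CAT2, DFR, PAC1 and evm.TU.Ft4.4858. The uncalled HSC-2 turned to -0.0345 under library-size scaling, -0.0346 under all 3 limma fits, which also lack TMM, and -0.0038 under the stricter filter. The uncalled RPS28 gained a call as lower under library-size scaling. Of 943 recomputed list medians, 16 changed sign and another 328 moved by more than 1 SD between replicates, most often under DESeq2, library-size scaling, limma and changed filters; of 2006 recomputed list counts, 161 moved by over 1.5 times, 80 of them under the 2-fold minimum and 40 under the stricter filter. Homeodomain leucine zipper factors turned to -0.0277 under library-size scaling, -0.0335 and -0.0323 under limma with pseudocounts of 0.1 and 1, -0.0115 under limma without a filter and -0.0136 under the stricter filter, and with single libraries left out they ranged from -0.0133 (without control replicate 3) to 0.0645. Under the stricter filter, which keeps fewer genes, medians turned to 0.0076 for secretory peroxidases, 0.0023 for cytokinin genes, 0.00021 for histones and 0.55 for cuticle and wax enzymes. Cellulose synthases turned to 0.0337 with DESeq2 and 0.0178 without a filter, and the jasmonate list to -0.0227 under limma without a filter. Sugar transporters ranged from -0.0801 to 0.0465 with single libraries left out, turning above 0 without 4 h replicate 3, control replicate 2 or control replicate 3. These causes were not tested.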
